A study of Mus musculus with 18 samples.

Results

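Described here are 36 genes that encode subunits of integrins and laminins, of 19938 gene symbols that have a probe set of 1 symbol on the array. They were chosen by gene family from their symbols. There are 26 integrin genes, of which 7 encode chains of leukocyte integrins and are kept apart from the other 19, and 10 laminin genes. The 19 are termed integrins outside leukocytes by this list alone, which does not say that white blood cells lack them. One probe set stood for 35 of the genes, and *Itgad* had 2, of which the one with the higher mean over all arrays was used.

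Messenger RNA of whole lung was measured on 18 Affymetrix Mouse Gene 1.0 ST arrays, in 6 groups of 3 lungs that the methods call biological replicates. *ScapΔ/Δ* mice carried SP-C-rtTA, a transactivator driven by the surfactant protein C promoter in respiratory epithelium, together with (tetO)7CMV-Cre and *Scap* flox/flox, and were taken at E18.5 and at PN1, the day of birth. Their controls were *Scap* flox/flox littermates without rtTA or without Cre at the same ages, on a mixed strain background that included FVB/N. *Insig1/2Δ/Δ* mice were taken at E17.5 and carried the same transgenes with *Insig1* flox/flox on an *Insig2*-/- background, and their control littermates were *Insig2*-/- as well and had no rtTA or no Cre. All dams received doxycycline in early to mid gestation, which was then withdrawn. The study describes deletion by these transgenes as incomplete, and it is directed at epithelium, whereas integrins and laminins are made by nearly every cell type of the lung. In whole lung RNA, fewer cells of a type and less RNA per cell cannot be told apart. The Scap arrays of E17.5 were not analysed here.

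Loss of SCAP, the escort protein of the SREBP transcription factors, lowers SREBP activity, and loss of INSIG1 and INSIG2, which retain SCAP in the endoplasmic reticulum, raises it. *Scap* measured 9.22 to 9.47 in the *ScapΔ/Δ* lungs and 9.71 to 9.75 in the controls at E18.5, and 9.53 to 9.65 in the *ScapΔ/Δ* lungs and 9.76 to 9.92 in the controls at PN1. *Insig1* measured 8.21 to 8.58 in the *Insig1/2Δ/Δ* lungs and 9.29 to 10 in their controls, so each deleted array lay below each control of its group. In the fits used below these targets were not called themselves, with an adjusted p of 0.511 at E18.5 and 0.0914 at PN1 for Scap and 0.758 for Insig1 from limma. The lung markers *Sftpc*, *Scgb1a1*, *Ager* and *Nkx2-1* stood at or above the 89.8th percentile of every array. The PN1 *ScapΔ/Δ* arrays KO17 and KO18 stood apart. Over all probe sets Pearson's r was 0.9944 between them and 0.9312 to 0.9599 between either and another array, and 0.9729 to 0.9975 between arrays without them. At E17.5, KO22 correlated more closely with the controls C19 and C20 (0.9960 to 0.9967 within these 3 arrays), and KO23 and KO24 with the control C21 (0.9932 to 0.9955), than arrays of these sets did with each other (0.9840 to 0.9914). The mean of 6 cardiac muscle markers was 12.06 on C21 and 9.46 to 10.42 on the other 17 arrays. Called results that rest on KO17 and KO18 are given with and without them, and without them KO16 alone stands for its group and is assumed to vary like the other groups.

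Integrins are receptors of an alpha and a beta chain that span the cell membrane and tie the matrix outside to the cytoskeleton inside, and the alpha chain largely sets the ligand. Laminins are heterotrimers of an alpha, a beta and a gamma chain that polymerize into the basement membrane under epithelium and around vessels and muscle. In lung, laminins with the alpha 5 and alpha 3 chains lie under alveolar and airway epithelium, where integrins alpha 3 beta 1 and alpha 6 beta 4 bind them. Integrins of beta 2 and some of beta 7 are borne by white blood cells.

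*Itgam* and *Itgax*, which encode the alpha M and alpha X chains of myeloid cells, rose at birth in *ScapΔ/Δ* lungs, and they are neighbours on chromosome 7. *Itgam* spans chr7:128062640-128118491 and *Itgax* chr7:128129526-128150657, with *Itgad* beside them at chr7:128173933-128205504 and *Itgal* at chr7:127296139-127335137 (GRCm38.p6). *Lama5* and *Lamb1*, which encode the alpha 5 and beta 1 chains, are 2 of the laminins whose values moved together from array to array. The promoters of these 4 genes are therefore shown, from RefSeq in the build GRCm38.p6, as the sense strand 5′ to 3′ over 250 bases before and 50 bases after the annotated start. That start is the first base of the gene span in *Itgam* and lies inside the span in *Itgax*, *Lama5* and *Lamb1*. *Itgam* lies on the plus strand (chr7:128062390-128062689), *Itgax* on the plus strand (chr7:128129300-128129599), *Lama5* on the minus strand (chr2:180225810-180226109) and *Lamb1* on the plus strand (chr12:31265043-31265342). Capitals mark matches on either strand to any of 6 short motifs, GAGGAA (the core of PU.1 and other ETS factors), GGGCGG (a GC box), CCAAT (the CCAAT box), TATAAA (the TATA box), TGANTCA (AP-1) and TCACNCCAC (a sterol regulatory element).
Itgam: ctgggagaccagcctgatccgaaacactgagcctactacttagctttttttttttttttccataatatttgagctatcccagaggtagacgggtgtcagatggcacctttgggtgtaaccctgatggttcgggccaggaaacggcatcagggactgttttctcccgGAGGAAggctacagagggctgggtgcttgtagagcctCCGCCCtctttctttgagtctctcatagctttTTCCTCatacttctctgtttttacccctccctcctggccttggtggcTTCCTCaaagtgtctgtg
Itgax: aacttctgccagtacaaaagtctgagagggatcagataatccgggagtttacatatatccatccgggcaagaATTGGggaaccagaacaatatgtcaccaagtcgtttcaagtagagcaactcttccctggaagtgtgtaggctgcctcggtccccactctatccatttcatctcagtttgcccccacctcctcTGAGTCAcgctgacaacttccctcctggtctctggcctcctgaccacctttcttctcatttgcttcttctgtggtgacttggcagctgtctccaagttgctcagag
Lama5: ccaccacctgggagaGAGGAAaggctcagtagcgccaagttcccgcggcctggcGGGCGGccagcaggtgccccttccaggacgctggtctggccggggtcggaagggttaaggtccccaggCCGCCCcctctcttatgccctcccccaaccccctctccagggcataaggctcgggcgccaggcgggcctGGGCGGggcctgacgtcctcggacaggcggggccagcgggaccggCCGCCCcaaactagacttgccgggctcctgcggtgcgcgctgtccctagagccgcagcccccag
Lamb1: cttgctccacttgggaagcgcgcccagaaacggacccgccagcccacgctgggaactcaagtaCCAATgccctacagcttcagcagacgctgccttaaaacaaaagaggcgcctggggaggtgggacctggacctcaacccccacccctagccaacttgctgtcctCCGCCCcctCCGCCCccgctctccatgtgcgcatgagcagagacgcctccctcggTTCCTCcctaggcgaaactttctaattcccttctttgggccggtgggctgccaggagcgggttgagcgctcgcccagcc

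The *Itgam* promoter held GAGGAA or its reverse complement 3 times and 1 GC box, and the *Itgax* promoter held 1 CCAAT match and 1 AP-1 match. The *Lama5* promoter held 1 GAGGAA and 4 GC boxes, and the *Lamb1* promoter held 1 CCAAT, 2 GC boxes and 1 GAGGAA match. Promoters were listed for 23 of the 36 genes, 26 in all. GAGGAA was in 14 of these 26 promoters and in 28.3% of all 32851 promoters of this length, the GC box in 12 and in 35.7% of all, CCAAT in 4 and in 37.4% of all, and the AP-1 motif in 3 and in 7.81% of all. TATAAA was in 0 of the 26 and in 13.6% of all, and the sterol regulatory element in 0 of the 26 and in 1.24% of all. A match says only that the letters occur in this window.

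Values of the genes on every array are plotted as deviations from the mean of each gene. Laminin genes varied from array to array more than the integrins, and their colours ran together down the columns.

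**Figure D1:**
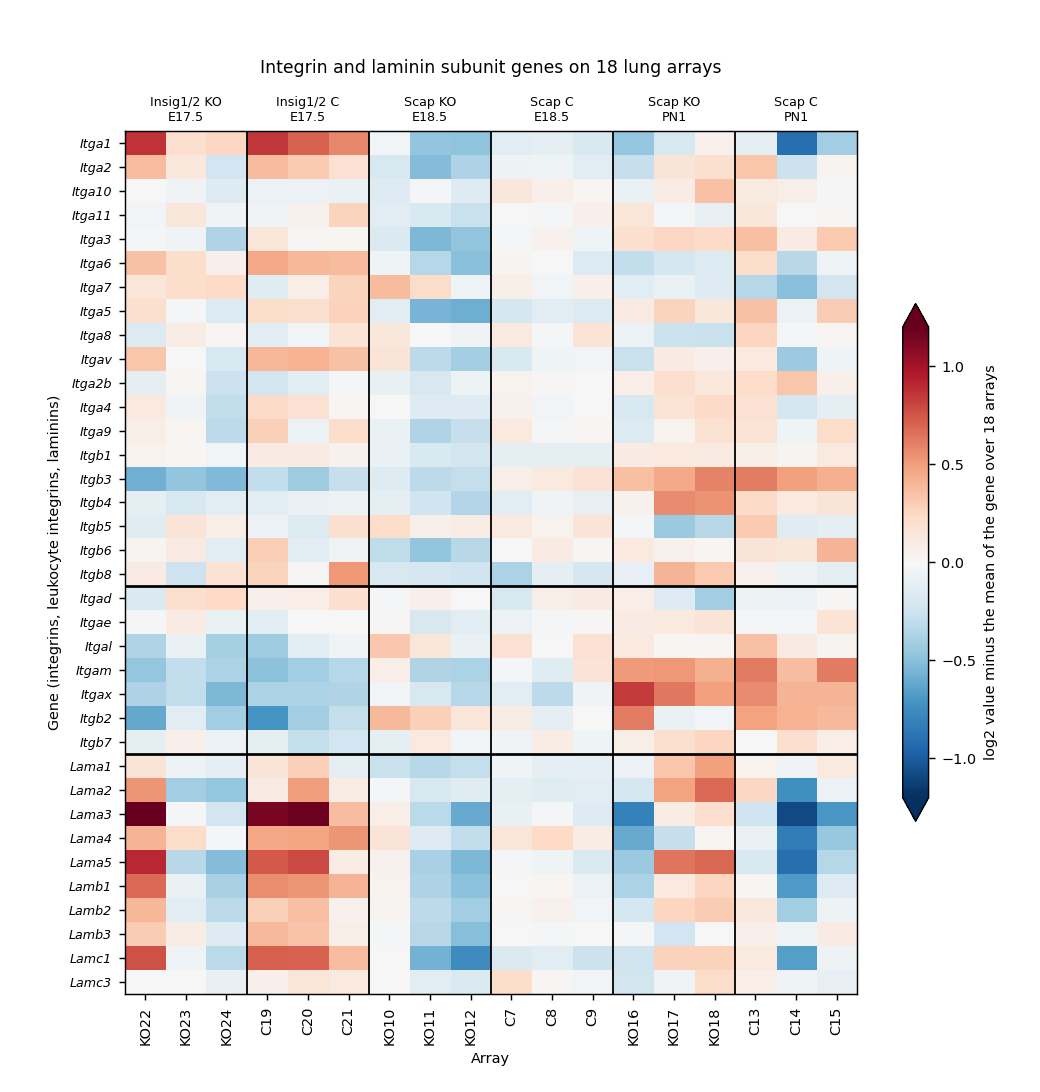
Colour shows the log2 value of each of the 36 genes (rows) on each of 18 arrays (columns) minus the mean of that gene over all arrays, with colours saturated beyond 1.2 on either side; horizontal lines part integrins, leukocyte integrins and laminins, and vertical lines part the 6 groups. *Lama3* and *Lama5* are high on KO22, C19 and C20, and low on C14.

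From E18.5 to PN1 the myeloid genes *Itgam* and *Itgax* and the epithelial genes *Itga3*, *Itgb4* and *Itgb6* rose in *ScapΔ/Δ* lungs. By limma with Benjamini-Hochberg adjustment over 22800 probe sets, called at an adjusted p under 0.05, 11 of the 35 genes tested rose and 0 fell in *ScapΔ/Δ* lungs, where 37.6% of all probe sets were called and 17.5% were called higher. In control lungs, *Itgax* and *Itgb3* rose and 0 genes fell, and 2.58% of all probe sets were called and 1.19% were called higher. The comparisons at the 2 genotypes share no arrays but share the estimate of the spread. Without KO17 and KO18, which leaves KO16 alone in its group, the differences of the 11 genes in *ScapΔ/Δ* lungs ran from 0.11 in *Itgb8* to 1.03 in *Itgax*. Among them were *Itgb3* (0.61), *Itga3* (0.59) and *Itgb6* (0.49). The count called in *ScapΔ/Δ* lungs was 6 without KO11 or without KO17, where 9.05% and 7.56% of all probe sets were called. It was 25 without KO16 (20 higher and 5 lower, where 72.1% of all probe sets were called), and in control lungs it was 7 without KO16 (12% of all probe sets). With each array centred on its median, the median of all probe sets there was -0.20 and 7 of the 35 genes rose and 3 fell, namely *Itga8*, *Itga7* and *Itgb5*. The change with age was not shown to differ between genotypes for any of the 35 genes, since the difference between the changes, fitted in limma, passed for 0 genes (smallest adjusted p = 0.265). It passed for 0 of the 22800 probe sets (0%), and at an unadjusted p under 0.05 for 4 genes above 0 and 1 below, where 8.25% and 10.1% of all probe sets were above and below. The 35th percentile filter left *Itgae*, the alpha E chain of mucosal lymphocytes, out of all tests.

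Of the 6 leukocyte integrin genes tested in *ScapΔ/Δ* lungs, 3 were above 0 and 3 below, and *Itgax* and *Itgam* of myeloid alpha chains were called. *Itgax* measured 7.57, 7.36 and 7.22 (log2) in PN1 *ScapΔ/Δ* lungs and 6.70, 6.54 and 6.39 in E18.5 *ScapΔ/Δ* lungs. In control lungs it measured 7.30, 7.14 and 7.14 at PN1 and 6.60, 6.41 and 6.69 at E18.5. All 6 arrays of PN1 lay above all 6 of E18.5. The difference was 0.84 ± 0.12 in *ScapΔ/Δ* lungs (SE, n = 3 each, 1.79-fold, adjusted p = 0.00244 from limma) and 0.63 ± 0.12 in control lungs (1.54-fold, adjusted p = 0.0228 from limma). The call in control lungs was lost without any 1 of the 6 control arrays (adjusted p = 0.0545 to 0.116 from limma), with a difference of 0.55 to 0.69. *Itgax* stood low, at the 31.5th to 51.7th percentile over all arrays. Its E18.5 values overlapped those of *Itgae*, which the filter left out, at 6.28 to 6.49 in *ScapΔ/Δ* and 6.4 to 6.49 in control lungs. A stricter filter at the 50th percentile left *Itgax* out, so it was not tested there at either genotype. It was not among the called genes with 1 fit over all arrays, which include the Insig arrays, where it lay below the filter. Whether *Itgax* was tested therefore depended on the filter, and its call in control lungs depended on the arrays fitted.

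*Itgam* encodes the alpha M chain of complement receptor 3 on macrophages and neutrophils. *Itgam* measured 8.21, 8.22 and 8.13 in PN1 *ScapΔ/Δ* lungs and 7.78, 7.34 and 7.32 in E18.5 *ScapΔ/Δ* lungs. In control lungs it measured 8.32, 8.07 and 8.32 at PN1 and 7.68, 7.55 and 7.85 at E18.5. The ages did not overlap at either genotype, and KO10 was the highest E18.5 *ScapΔ/Δ* array. The rise in *ScapΔ/Δ* lungs was 0.71 ± 0.13 (SE, n = 3 each, 1.64-fold, adjusted p = 0.00683 from limma), and the difference in control lungs was 0.55 ± 0.13 (1.46-fold, adjusted p = 0.0606 from limma). Without KO17 and KO18 the call in *ScapΔ/Δ* lungs was lost (difference 0.73, adjusted p = 0.0555 from limma).

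*Itgb2*, the beta chain that pairs with alpha L, M, X and D, did not pass. At PN1 it measured 9.66, 8.96 and 9.01 in *ScapΔ/Δ* lungs and 9.53, 9.46 and 9.43 in control lungs. At E18.5 it measured 9.43, 9.33 and 9.19 in *ScapΔ/Δ* lungs and 9.13, 8.93 and 9.04 in control lungs. KO17 and KO18 lay below every PN1 control and KO16 above every one, while at E18.5 all *ScapΔ/Δ* arrays lay above all controls. Its PN1 minus E18.5 difference was -0.11 ± 0.16 in *ScapΔ/Δ* lungs (adjusted p = 0.6 from limma) and 0.44 ± 0.16 in control lungs (adjusted p = 0.24 from limma). The other leukocyte genes tested, *Itgal* of alpha L, *Itgad* of alpha D and *Itgb7* of beta 7, had differences of -0.18 to 0.18 in *ScapΔ/Δ* lungs and -0.03 to 0.09 in control lungs. A second probe set of *Itgad*, not used in the counts, gave 0.30 ± 0.08 in *ScapΔ/Δ* lungs (adjusted p = 0.0243 from limma), against -0.18 for the one used, so the probe sets of this gene disagreed.

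Markers of white blood cells differed between ages as well. The mean of 8 neutrophil markers was 8.72, 8.21 and 8.04 in PN1 *ScapΔ/Δ* lungs and 7.71, 7.85 and 7.95 in E18.5 *ScapΔ/Δ* lungs, and it was 8.36 to 8.63 in PN1 and 7.48 to 7.69 in E18.5 control lungs. The mean of 10 macrophage and monocyte markers was 9.55, 8.88 and 8.87 in PN1 *ScapΔ/Δ* lungs and 9.41 to 9.51 in E18.5 *ScapΔ/Δ* lungs, and 9.41 to 9.52 in PN1 and 9.16 to 9.30 in E18.5 control lungs. The mean of these markers on KO17 and KO18 thus lay below all other Scap arrays, as *Itgb2* did among the PN1 arrays. Taken singly, *Cd68*, *Adgre1*, *Lyz2*, *Fcgr3* and *Tyrobp* did so, and *Ptprc*, *Csf1r*, *Cd14*, *Marco* and *Mrc1* did not. All 8 neutrophil markers were above 0 from E18.5 to PN1 in control lungs (median 0.82, 3 called) and 7 of 8 in *ScapΔ/Δ* lungs (median 0.46, 6 called). Of the 10 macrophage and monocyte markers, 4 were above and 6 below 0 in *ScapΔ/Δ* lungs (median -0.37, 4 called), and 8 were above and 2 below in control lungs (median 0.19, 1 called). The part of these cells in the integrin values was not tested.

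**Figure D2:**
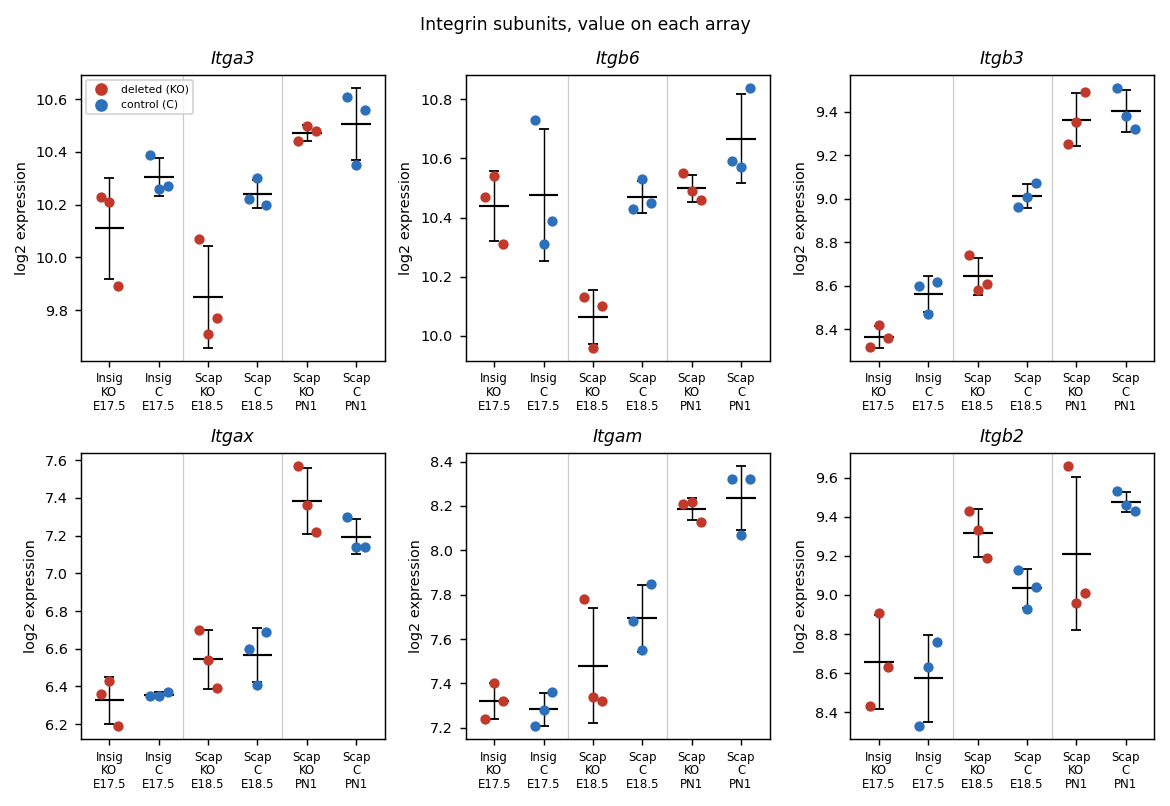
Each point is the log2 value of 1 array for 6 integrin genes, red for deleted and blue for control lungs, with bars for the mean and SD of 3 lungs, for the Insig mice of E17.5 and the Scap mice of E18.5 and PN1. *Itgax* lies at 7.14 to 7.57 on the PN1 arrays and at 6.39 to 6.70 on the E18.5 arrays.

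Of the beta chains outside leukocytes, 5 of 6 were called higher at birth in *ScapΔ/Δ* lungs (17.5% of all probe sets), *Itgb3*, *Itgb4*, *Itgb6*, *Itgb8* and *Itgb1*. In control lungs 5 of 6 were higher at PN1 on every array as well (17.6% of all probe sets), and 1 was called (1.19%). The control differences of *Itgb8* and *Itgb1* were 0.19 and 0.18. *Itgb3* encodes the beta 3 chain, which pairs with alpha V in vessels and with alpha IIb on platelets. *Itgb3* measured 9.25, 9.35 and 9.49 in PN1 *ScapΔ/Δ* lungs and 8.74, 8.58 and 8.61 in E18.5 *ScapΔ/Δ* lungs. In control lungs it measured 9.51, 9.38 and 9.32 at PN1 and 8.96, 9.01 and 9.07 at E18.5. PN1 lay above E18.5 at each genotype. The rise was 0.72 ± 0.09 in *ScapΔ/Δ* lungs (1.64-fold, adjusted p = 0.00151 from limma) and 0.39 ± 0.09 in control lungs (1.31-fold, adjusted p = 0.0443 from limma). The call in control lungs was lost when any 1 of the 12 Scap arrays other than KO16 and KO18 was left out (adjusted p = 0.0521 to 0.197 from limma).

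*Itgb4* encodes the beta 4 chain of hemidesmosomes, which holds epithelium to laminin. It measured 8.52, 9.04 and 9.01 in PN1 *ScapΔ/Δ* lungs and 8.36, 8.23 and 8.12 in E18.5 *ScapΔ/Δ* lungs. KO17 and KO18 were high, above the PN1 controls at 8.70, 8.59 and 8.62, and KO16 lay below them. The rise in *ScapΔ/Δ* lungs was 0.62 ± 0.13 (1.54-fold, adjusted p = 0.0103 from limma) and was 0.29 without KO17 and KO18 (adjusted p = 0.133 from limma). In control lungs the E18.5 arrays measured 8.34, 8.43 and 8.37, and the difference was 0.26 ± 0.13 (adjusted p = 0.455 from limma).

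*Itgb6* encodes the beta 6 chain, an epithelial partner of alpha V that activates latent TGF-beta. *Itgb6* measured 10.55, 10.49 and 10.46 in PN1 *ScapΔ/Δ* lungs and 10.13, 9.96 and 10.10 in E18.5 *ScapΔ/Δ* lungs. The PN1 arrays lay above all E18.5 arrays, and the rise was 0.44 ± 0.09 (1.35-fold, adjusted p = 0.00975 from limma). The rise was 0.49 without KO17 and KO18, and it was not called with each array centred on its median (0.26, adjusted p = 0.0819 from limma). In control lungs it measured 10.59, 10.57 and 10.84 at PN1 and 10.43, 10.53 and 10.45 at E18.5, a difference of 0.20 ± 0.09 (adjusted p = 0.368 from limma). *Itgb8*, another partner of alpha V, rose by 0.41 ± 0.12 and *Itgb1*, the partner of most alpha chains, by 0.26 ± 0.07 in *ScapΔ/Δ* lungs, and these calls were lost without KO17 and KO18 (0.11 and 0.26, adjusted p = 0.601 and 0.0964 from limma). *Itgb5*, the beta 5 chain, had a difference of -0.39 ± 0.14 there (adjusted p = 0.0504 from limma), with PN1 below E18.5 on every array. Markers of other lung cells differed between ages too. Smooth muscle markers averaged 10.50 to 10.60 in PN1 and 9.51 to 9.59 in E18.5 *ScapΔ/Δ* lungs (6 of 6 called higher, median 1.05), and 10.47 to 10.57 in PN1 and 9.51 to 9.73 in E18.5 control lungs (4 of 6 called, median 0.87). In *ScapΔ/Δ* lungs 4 of 4 mesothelial markers were higher (median 0.45, 3 called), and 5 of 7 fibroblast markers were lower (median -0.72, 5 called in either direction). There 4 of 6 type I cell markers (median -0.34, 3 called) and 6 of 7 type II cell markers (median -0.18, 3 called) were lower. Of 8 epithelium markers 4 were higher and 4 lower (median 0.0, 1 called). KO17 and KO18 had the lowest means of the Scap arrays for type I (11.38 and 11.39) and type II cells (11.64 and 11.55). The part of these cells in the integrin and laminin values was not tested.

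Of the alpha chains, *Itga3*, *Itga5* and *Itga2b* rose at birth in *ScapΔ/Δ* lungs. *Itga3* encodes the alpha 3 chain, a laminin receptor of lung epithelium. It measured 10.44, 10.50 and 10.48 in PN1 *ScapΔ/Δ* lungs and 10.07, 9.71 and 9.77 in E18.5 *ScapΔ/Δ* lungs, with no overlap. In control lungs it measured 10.61, 10.35 and 10.56 at PN1 and 10.22, 10.30 and 10.20 at E18.5, also with no overlap. The rise was 0.62 ± 0.10 in *ScapΔ/Δ* lungs (1.54-fold, adjusted p = 0.00475 from limma), and the difference in control lungs was 0.26 ± 0.10 (adjusted p = 0.284 from limma).

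*Itga5* encodes the alpha 5 chain of the fibronectin receptor. It measured 10.18, 10.34 and 10.21 in PN1 *ScapΔ/Δ* lungs and 9.94, 9.52 and 9.49 in E18.5 *ScapΔ/Δ* lungs. The groups did not overlap, and the rise was 0.59 ± 0.14 (1.5-fold, adjusted p = 0.015 from limma). The call was lost without KO11, KO12 or KO17 (differences of 0.51 to 0.54, adjusted p = 0.0569 to 0.0633 from limma) and without KO17 and KO18 together (0.53, adjusted p = 0.149 from limma). In control lungs *Itga5* measured 10.43, 10.01 and 10.38 at PN1 and 9.87, 9.95 and 9.91 at E18.5, a difference of 0.37 ± 0.14 (adjusted p = 0.25 from limma). *Itga2b*, the alpha IIb chain of platelets, rose by 0.25 ± 0.08 in *ScapΔ/Δ* lungs (adjusted p = 0.0397 from limma), and was 0.19 without KO17 and KO18 (adjusted p = 0.321 from limma). In control lungs its difference was 0.19 ± 0.08 (adjusted p = 0.36 from limma). The mean of the 5 platelet markers measured was 9.01, 8.67 and 8.59 in PN1 and 8.65 to 8.88 in E18.5 *ScapΔ/Δ* lungs, and 8.81 to 9.39 in PN1 and 8.66 to 8.78 in E18.5 control lungs, and its part in *Itga2b* and *Itgb3* was not tested. *Itga7*, the laminin-binding alpha 7 chain of muscle, lay lower at PN1 than at E18.5 on every array of each genotype, with differences of -0.31 ± 0.11 in *ScapΔ/Δ* lungs (adjusted p = 0.0519 from limma) and -0.39 ± 0.11 in control lungs (adjusted p = 0.114 from limma).

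Of the 10 laminin genes, *Lama1* rose at birth in *ScapΔ/Δ* lungs and 0 were called in control lungs. *Lama1*, which encodes the alpha 1 chain of early embryonic basement membrane, measured 7.07, 7.47 and 7.63 in PN1 *ScapΔ/Δ* lungs and 6.87, 6.81 and 6.85 in E18.5 *ScapΔ/Δ* lungs. In control lungs it measured 7.18, 7.10 and 7.26 at PN1 and 7.09, 7.02 and 7.02 at E18.5. The E18.5 *ScapΔ/Δ* arrays were the lowest and KO17 and KO18 the highest of these 12 arrays. *Lama1* stood low, at the 40.6th to 48.8th percentile over all arrays, so a stricter filter at the 50th percentile left it out. The rise in *ScapΔ/Δ* lungs was 0.55 ± 0.12 (1.46-fold, adjusted p = 0.0131 from limma). It was lost without KO11 (0.53, adjusted p = 0.0505 from limma), without KO17 (0.51, adjusted p = 0.0563 from limma) and without KO17 and KO18 (0.23, adjusted p = 0.138 from limma).

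The median PN1 minus E18.5 difference of the 10 laminins was 0.31 in *ScapΔ/Δ* lungs and -0.11 in control lungs, beside -0.03 and 0.01 over all probe sets tested. In *ScapΔ/Δ* lungs 9 of 10 were above 0 (47.9% of all probe sets), and the median was -0.10 without KO17 and KO18. In control lungs 8 of 10 were below 0 (47.9% of all probe sets), led by *Lama4* of vessels and mesenchyme at -0.62 ± 0.20 (adjusted p = 0.172 from limma) and *Lama3* at -0.58 ± 0.28 (adjusted p = 0.418 from limma). Without C14, the array with the lowest value of 9 of the 10 laminins among PN1 controls, the control median was -0.02, and without C13 it was -0.26. Over all probe sets, C14 was the lowest PN1 control in 34.2%. With no overlap between ages, 12 of the 35 genes were higher and 3 lower at PN1 in *ScapΔ/Δ* lungs (16.7% and 17.3% of all probe sets), and 12 were higher and 4 lower in control lungs (17.6% and 16.5%).

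**Figure D3:**
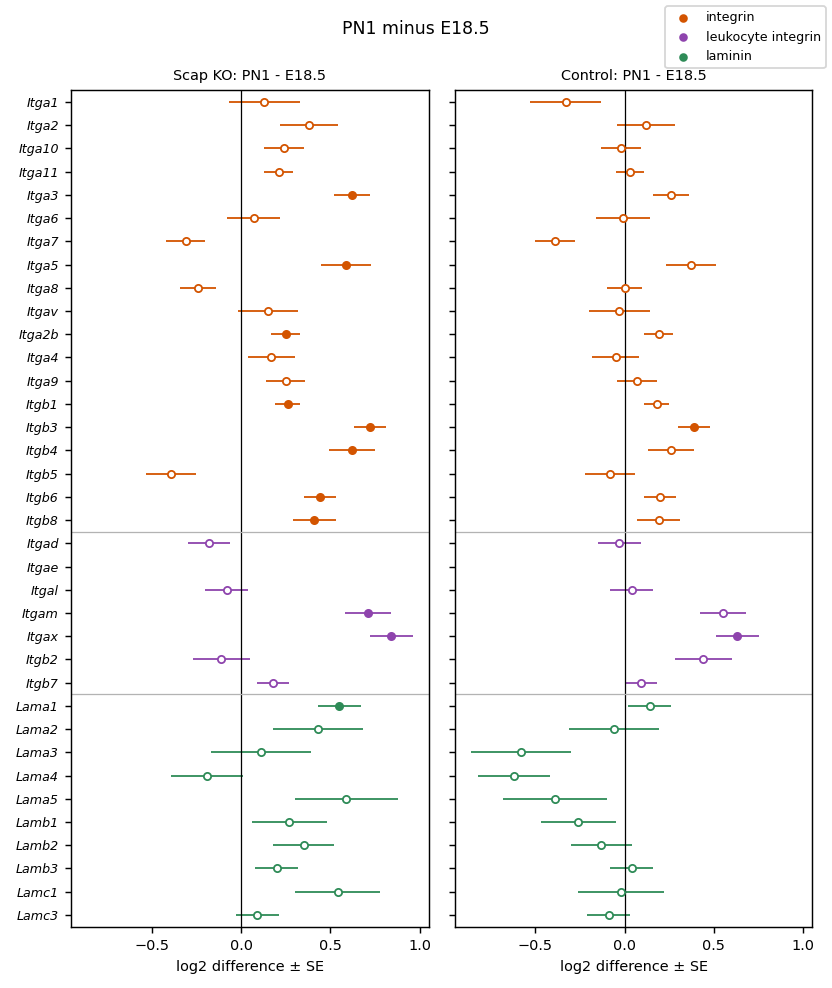
Points show the PN1 minus E18.5 difference (log2) with its SE from limma for each gene tested, in *ScapΔ/Δ* lungs on the left and control lungs on the right; filled points have an adjusted p under 0.05. Filled points number 11 in *ScapΔ/Δ* lungs and 2 in control lungs, and *Itgae* was not tested.

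With *Scap* deleted, 28 of the 35 genes lay below their controls at E18.5, but 0 were called by limma (0.00877% of all probe sets were called). The methods' t-test, which they used for Insig and which was applied here to Scap, called 0 as well, and at an unadjusted p under 0.05 limma found 6 lower and 0 higher, where 4.85% and 4.39% of all probe sets were lower and higher. The median was -0.19 over the 35 genes and -0.04 over all probe sets, of which 58.3% were below 0. In 9 genes all *ScapΔ/Δ* arrays lay below all controls (21% of all probe sets), and in *Itgb2* they lay above (14.5%). The smallest adjusted p was 0.511. These comparisons share their arrays with the comparisons of ages above.

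The lowest differences at E18.5 were in *Itgb6*, *Itga3* and *Itgb3*, whose array values are given above and which were singled out after their values were seen. *Itgb6* averaged 10.06 in *ScapΔ/Δ* lungs and 10.47 in control lungs, a difference of -0.41 ± 0.09 (0.754-fold, SE, n = 3 each, adjusted p = 0.511 from limma). *Itga3* averaged 9.85 in *ScapΔ/Δ* lungs and 10.24 in control lungs (-0.39 ± 0.10, adjusted p = 0.511 from limma). *Itgb3* averaged 8.65 in *ScapΔ/Δ* lungs and 9.01 in control lungs (-0.37 ± 0.09, adjusted p = 0.511 from limma). In each of these genes every *ScapΔ/Δ* array lay below every control.

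The collagen-binding alpha chains *Itga1*, *Itga2*, *Itga10* and *Itga11* had differences of -0.27 to -0.19 at E18.5. *Itga2*, of the collagen receptor alpha 2 beta 1, measured 9.98, 9.65 and 9.80 in *ScapΔ/Δ* lungs and 10.11, 10.12 and 10.03 in control lungs, a difference of -0.27 ± 0.16 (adjusted p = 0.589 from limma). *Itga9*, whose chain binds tenascin C among other ligands, measured 10.30, 10.02 and 10.10 in *ScapΔ/Δ* lungs and 10.49, 10.35 and 10.40 in control lungs, a difference of -0.28 ± 0.11 (adjusted p = 0.536 from limma). In both genes the groups did not overlap, with KO10 nearest to the controls. KO10 was the highest of the 3 *ScapΔ/Δ* arrays in 17 of the 19 integrins outside leukocytes, in 5 of the 7 leukocyte integrins and in all 10 laminins, against 42.2% of all probe sets.

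Laminins at E18.5 lay below the controls in 9 of 10 genes, all but *Lama2* of muscle and mesenchyme at 0.01, with a median of -0.23. The median was -0.38 without KO10 and -0.14 without KO12. The lowest was *Lamb3*, the beta 3 chain found with alpha 3 under epithelium, at -0.28 ± 0.12 (adjusted p = 0.536 from limma). It measured 9.77, 9.45 and 9.27 in *ScapΔ/Δ* lungs and 9.79, 9.76 and 9.78 in control lungs. KO10 overlapped with the controls and KO11 and KO12 lay below them. The median SD of laminins was 0.24 over the *ScapΔ/Δ* lungs and 0.06 over the controls, beside 0.11 and 0.06 over all probe sets tested.

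At PN1 the laminins lay on the other side of their controls, in 9 of 10 genes above 0 (42.1% of all probe sets). The median was 0.25 for laminins and 0.03 for all 35 genes, beside -0.06 over all probe sets. By limma 0 genes were called (0.00877% of all probe sets), the methods' t-test for Insig called 0, and at an unadjusted p under 0.05 limma found *Lama5* higher and *Itga8* lower, where 32.3% of all probe sets passed in either direction. Centring each array on its median moved the median of all probe sets to -0.19, and the laminins were then at 0.12 and the 35 genes at -0.10. With KO17 and KO18 left out the laminin median was -0.10. Leaving out C14 gave 0.08, C13 gave 0.39, KO16 gave 0.43 and KO18 gave 0.14.

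*Lama5*, which encodes the alpha 5 chain of alveolar basement membrane, measured 9.68, 10.76 and 10.81 in PN1 *ScapΔ/Δ* lungs and 9.94, 9.22 and 9.78 in control lungs. KO17 and KO18 lay above every control and KO16 below C13 and C15. The difference was 0.77 ± 0.29 (1.71-fold, adjusted p = 0.115 from limma). Without KO16 it was 1.14 ± 0.20 (adjusted p = 0.000621 from limma, where 61.9% of all probe sets were called), and without KO17 and KO18 it was 0.03 ± 0.27 (adjusted p = 0.962 from limma).

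*Lama2*, the alpha 2 chain, measured 8.86, 9.55 and 9.75 in PN1 *ScapΔ/Δ* lungs and 9.32, 8.33 and 9.0 in control lungs. KO17 and KO18 were again the highest, and C14 the lowest. The difference was 0.51 ± 0.25 (adjusted p = 0.184 from limma), 0.77 ± 0.21 without KO16 (adjusted p = 0.00943 from limma) and -0.02 ± 0.28 without KO17 and KO18 (adjusted p = 0.979 from limma). Both KO17 and KO18 exceeded KO16 in 9 of 10 laminins, in 14 of 19 integrins and in 2 of 7 leukocyte integrins, against 41.1% of all probe sets. They exceeded all PN1 controls in 7 of 10 laminins, 3 of 19 integrins and 0 of 7 leukocyte integrins, against 29.8%.

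Integrins at PN1 lay on both sides of their controls. *Itga7* was higher on all *ScapΔ/Δ* arrays than on all controls (0.23 ± 0.11, adjusted p = 0.177 from limma), beside 5.59% of all probe sets. *Itga8*, the alpha 8 chain of mesenchyme, and *Itgb6* were lower on all (-0.29 ± 0.10, adjusted p = 0.0998, and -0.17 ± 0.09, adjusted p = 0.206 from limma), beside 11%. *Itgb2* had a difference of -0.26 ± 0.16 (adjusted p = 0.265 from limma), which was -0.49 ± 0.08 without KO16 (adjusted p = 0.000531 from limma) and 0.19 ± 0.11 without KO17 and KO18 (adjusted p = 0.575 from limma). Without KO16, 10 of the 35 genes were called, where 61.9% of all probe sets were, namely *Lama5*, *Lama3*, *Lama2*, *Itgb8*, *Lamb2*, *Itgb4* and *Lama1* higher and *Itga8*, *Itgb5* and *Itgb2* lower.

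**Figure D4:**
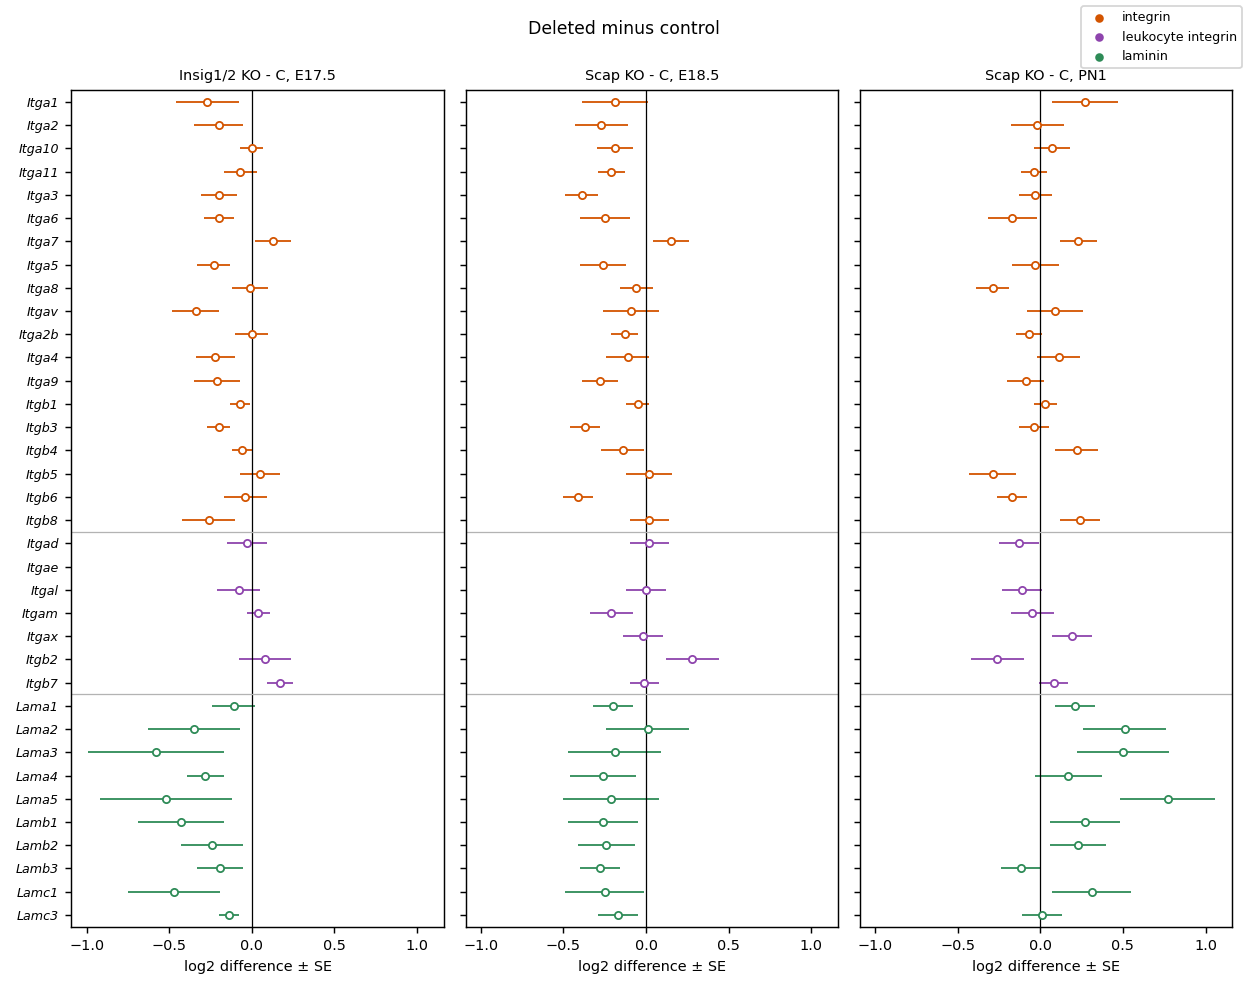
Points show the deleted minus control difference (log2) with its SE from limma for each gene tested, in *Insig1/2Δ/Δ* lungs at E17.5 and *ScapΔ/Δ* lungs at E18.5 and PN1; all points are open since 0 had an adjusted p under 0.05. Laminins lie below 0 in 10 of 10 genes at E17.5 and in 9 of 10 at E18.5, and above 0 in 9 of 10 at PN1.

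The PN1 effect minus the E18.5 effect was above 0 for all 10 laminins (median 0.48) and for 30 of the 35 genes (median 0.22), beside -0.03 over all probe sets, of which 46.5% were above 0. The largest was *Lama5* at 0.98 ± 0.41 (adjusted p = 0.265 from limma). The largest in the other direction was *Itgb2* at -0.54 ± 0.23 (adjusted p = 0.265 from limma). Without KO16, 14 of the 35 genes were called in this contrast, where 58.4% of all probe sets were called, and without KO17 and KO18 the laminin median was 0.13. The effects at the 2 ages enter this difference and are not independent of it.

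With *Insig1* and *Insig2* deleted, all 10 laminins lay below their controls at E17.5, but 0 of the 34 genes tested were called by limma over 22775 probe sets (0% called; *Itgae* and *Itgax* were below the filter). The methods' t-test, used there for this comparison, called 0, also at their stricter threshold of adjusted p and fold, and at an unadjusted p under 0.05 limma found *Itgav*, *Itgb3* and *Lama4* lower and 0 higher, where 1.90% and 2.20% of all probe sets were lower and higher. Of the 34 genes 28 were below 0 (45.5% of all probe sets). The median was -0.32 for laminins and -0.19 for the 34 genes, beside 0.01 over all probe sets. The laminin median was -0.56 without KO22 and -0.17 without KO24.

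*Lama3*, the alpha 3 chain under epithelium, measured 11.03, 9.81 and 9.60 in *Insig1/2Δ/Δ* lungs and 10.97, 11.01 and 10.20 in control lungs (-0.58 ± 0.41, adjusted p = 0.758 from limma). *Lama5* measured 11.03, 9.79 and 9.60 in *Insig1/2Δ/Δ* lungs and 10.86, 10.91 and 10.21 in control lungs (-0.52 ± 0.40, adjusted p = 0.758 from limma). In both genes KO22 was the highest array and C21 the lowest control.

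*Lamb1*, the beta 1 chain of most laminins, measured 11.09, 10.33 and 10.02 in *Insig1/2Δ/Δ* lungs and 10.97, 10.94 and 10.82 in control lungs, a difference of -0.43 ± 0.26 (adjusted p = 0.758 from limma). *Lamc1*, the gamma 1 chain of most laminins, measured 12.03, 11.21 and 10.94 in *Insig1/2Δ/Δ* lungs and 11.98, 11.97 and 11.63 in control lungs (-0.47 ± 0.28, adjusted p = 0.758 from limma). KO23 and KO24 lay below every control in both, and KO22 lay above every control.

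The spread was thus within the groups. In 8 of 10 laminins, all but *Lama4* and *Lamc3* of the gamma 3 chain, KO22, C19 and C20 each lay above KO23, KO24 and C21, which held for 3 of 19 integrins outside leukocytes (*Itga1* and *Itga2* of collagen receptors and *Itga4*, the alpha 4 chain), 0 of 7 leukocyte integrins and 20.3% of all probe sets. Several matrix genes described further below, *Hspg2* and *Frem2* among them, kept this order too, so it was not particular to laminins. The mean of the 10 laminins was 10.27, 9.66 and 9.47 on KO22, KO23 and KO24, and 10.19, 10.26 and 9.93 on C19, C20 and C21. The median SD of laminins was 0.46 in *Insig1/2Δ/Δ* lungs and 0.18 in control lungs, beside 0.13 and 0.09 over all probe sets and 0.14 and 0.11 over integrins outside leukocytes. Means of several marker lists parted the same arrays in the opposite order. Single probe sets, a measure unlike list means, did so in 19.4% of all probe sets. The lists were type I, type II and airway cells, macrophages and monocytes, neutrophils, lymphocytes, platelets, mesothelium and cardiac muscle. Lymphocyte means parted narrowly, at 6.08, 6.07 and 6.09 on KO22, C19 and C20 and 6.19, 6.25 and 6.12 on KO23, KO24 and C21. The lists of epithelium, endothelium, fibroblasts, smooth muscle and thymus did not. Type I cell markers averaged 11.05, 11.64 and 11.61 on KO22, KO23 and KO24 and 11.31, 10.98 and 11.53 on C19, C20 and C21. Airway cell markers averaged 10.20, 10.61 and 10.73 on KO22, KO23 and KO24 and 10.26, 10.38 and 10.61 on C19, C20 and C21. Macrophage and monocyte markers averaged 8.75, 9.15 and 9.09 on KO22, KO23 and KO24 and 8.72, 8.80 and 8.91 on C19, C20 and C21. Taken singly, *Adgre1*, *Lyz2* and *Tyrobp* of this list kept that order and its other markers did not. The part of all these cells in the laminin values was not tested.

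**Figure D5:**
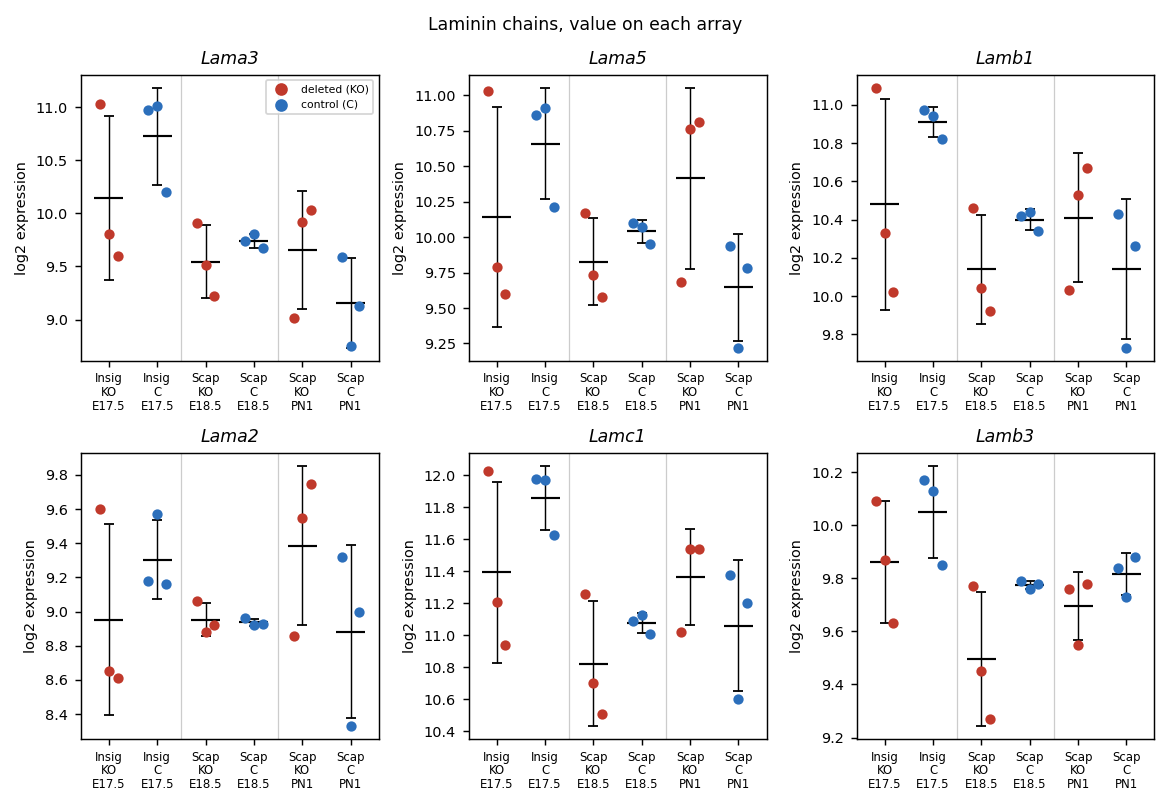
Each point is the log2 value of 1 array for 6 laminin genes, red for deleted and blue for control lungs, with bars for the mean and SD of 3 lungs, for the Insig mice of E17.5 and the Scap mice of E18.5 and PN1. KO22 lies at 11.03 in *Lama3* beside 9.81 and 9.60 on the other *Insig1/2Δ/Δ* arrays, and KO16 lies at 9.68 in *Lama5* beside 10.76 and 10.81.

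In 7 genes all *Insig1/2Δ/Δ* arrays lay below all controls (4.22% of all probe sets), *Itga3*, *Itga6*, *Itgav*, *Itgb1*, *Itgb3*, *Lama4* and *Lamc3*, and 0 genes lay above (5.83%). *Itgav*, the alpha V chain that pairs with beta 1, 3, 5, 6 and 8, had the lowest difference of these at -0.34 ± 0.14 (adjusted p = 0.758 from limma). It measured 11, 10.67 and 10.47 in *Insig1/2Δ/Δ* lungs and 11.06, 11.08 and 11.02 in control lungs. *Itga6*, the alpha 6 chain of hemidesmosomes, measured 11.73, 11.59 and 11.44 in *Insig1/2Δ/Δ* lungs and 11.83, 11.78 and 11.76 in control lungs (-0.20 ± 0.09, adjusted p = 0.758 from limma). In both genes KO22 lay just below the lowest control and KO24 was the lowest array.

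Differences varied with the length of the gene. Laminin genes had a median length of 89.2 kb (10.7 to 636 kb), integrin genes outside leukocytes 75.5 kb and leukocyte integrin genes 35.4 kb. Over all genes with a length, the *Insig1/2Δ/Δ* minus control median was -0.15 in the longest 10% of genes and 0.07 in the shortest 10%. The *ScapΔ/Δ* minus control median was -0.09 in the longest and -0.03 in the shortest genes at E18.5, and 0.10 in the longest and -0.01 in the shortest at PN1, where the median was lowest, -0.19, in genes of middle length. The part of gene length in the laminin values was not tested.

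Partners of these receptors were described from lists of matrix proteins (17 of 18 measured), adhesion adaptors (23 of 24 measured) and ligands of leukocyte integrins (9 of 9). From E18.5 to PN1 in *ScapΔ/Δ* lungs, 3 matrix genes rose and 1 fell, 5 adaptors rose and 3 fell, and 0 ligands rose and 1 fell, where 17.5% of all probe sets rose and 20.1% fell. Without KO17 and KO18, where KO16 stands alone in its group, fewer partners were called there, as over all probe sets. In control lungs 1 matrix gene and 1 adaptor rose and 0 partners fell, where 1.19% of all probe sets rose and 1.39% fell. More partners were called in control lungs without KO17 and KO18 in the fit, as over all probe sets. *Tnc*, which encodes the matrix protein tenascin C, measured 11.18, 11.66 and 11.52 in PN1 and 10.11, 9.79 and 9.53 in E18.5 *ScapΔ/Δ* lungs, and 11.35, 10.80 and 11.42 in PN1 and 10.02, 10.04 and 9.97 in E18.5 control lungs. It rose by 1.65 ± 0.19 in *ScapΔ/Δ* lungs (3.13-fold, adjusted p = 0.00121 from limma) and by 1.18 ± 0.19 in control lungs (2.26-fold, adjusted p = 0.0115 from limma), with no overlap between ages. *Parvb*, an adaptor of the integrin-linked kinase complex, rose by 0.61 ± 0.14 in *ScapΔ/Δ* lungs (adjusted p = 0.0136 from limma) and by 0.65 ± 0.14 in control lungs (adjusted p = 0.0349 from limma).

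In *ScapΔ/Δ* lungs *Hspg2*, which encodes perlecan of the basement membrane, rose by 0.95 ± 0.27 and *Plec*, which encodes plectin of hemidesmosomes, by 0.96 ± 0.24. KO17 and KO18 were the highest PN1 arrays in both, at 10.59 and 10.78 in *Hspg2* and 9.73 and 9.72 in *Plec*, as they were in *Lama5*. Without KO17 and KO18 these differences were 0.36 and 0.34, and neither was called (adjusted p = 0.513 and 0.379 from limma). *Jam3*, a ligand of alpha M beta 2, fell by 1.01 on the log2 scale, and *Egfl6*, a ligand of alpha 8 beta 1, fell by 0.87. KO17 and KO18 were the lowest PN1 arrays in both, at 7.13 and 7.15 in *Jam3* and 10.22 and 10.33 in *Egfl6*. Without them the differences were -0.33 and -0.30, beside 1.37 in *Tnc* and 0.90 in *Parvb*.

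Between *ScapΔ/Δ* and control lungs 0 partners were called by limma at either age, nor between *Insig1/2Δ/Δ* lungs and their controls. At E18.5 all 17 matrix genes were below 0 (median -0.18), and 20 of 23 adaptors were (median -0.18). At an unadjusted p under 0.05, 5 of the adaptors were lower and 0 higher (4.85% and 4.39% of all probe sets). At PN1, 8 of 17 matrix genes, 17 of 23 adaptors and 7 of 9 ligands were below 0, and at an unadjusted p under 0.05, 9 adaptors were lower and 1 higher, where 32.3% of all probe sets passed in either direction. *Egfl6* then measured 11.13, 10.22 and 10.33 in *ScapΔ/Δ* lungs and 11.51, 11.52 and 11.52 in control lungs (-0.96 ± 0.20, adjusted p = 0.0885 from limma), and *Vtn*, which encodes vitronectin, measured 7.95, 7.20 and 7.52 in *ScapΔ/Δ* lungs and 8.72, 8.39 and 8.15 in control lungs (-0.86 ± 0.18, adjusted p = 0.0885 from limma). The groups did not overlap in either gene, and KO16 lay nearest to the controls. Without KO17 and KO18 the differences were -0.39 and -0.47 (adjusted p = 0.552 for each from limma). At E17.5, 15 of 17 matrix genes (median -0.26), 14 of 23 adaptors and 2 of 9 ligands were below 0. *Hspg2* measured 10.99, 9.38 and 9.37 in *Insig1/2Δ/Δ* lungs and 10.86, 10.88 and 9.98 in control lungs. KO22 was the highest array and C21 the lowest control, as in *Lama3* and *Lama5*. KO22, C19 and C20 each lay above KO23, KO24 and C21 in *Nid1*, *Nid2*, *Hspg2*, *Agrn*, *Tnc*, *Fras1*, *Frem1*, *Frem2* and *Ltbp1*. They did not in *Dag1*, *Bcam*, *Fn1*, *Vtn*, *Npnt*, *Egfl6*, *Emilin1* and *Ntn4*.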

How the data were processed

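Whole lung RNA was measured on Affymetrix Mouse Gene 1.0 ST arrays, 1 array per lung. The authors deposited log2 expression values for 35556 probe sets and analysed them further in GeneSpring GX 11.5. How probes were summarized and normalized is not given in the sources used here, so differences are relative to that scaling. Values ran from 3.09 to 14.05 with array medians of 7.42 to 7.70, and no signal over background was used here. Through the platform annotation, 21789 probe sets had 1 gene symbol, 1621 had several and 12146 had none. Genes were named from probe sets of 1 symbol, and 3 probe sets that share a member gene with others were left out.

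Following the filter of the methods, probe sets were kept when above the 35th percentile in at least 66% of arrays. Values were fitted in limma 3.58.1 (R 4.3.3) with 4 group means over the 12 Scap arrays (22800 probe sets) and with 2 over the 6 Insig arrays (22775), and p-values were adjusted by Benjamini-Hochberg over all probe sets. The methods used two-way analysis of variance for Scap, in place of which the group means were fitted, and a t-test for Insig. A difference was called at an adjusted p under 0.05. With 3 arrays a group, an exact permutation test cannot go below 0.1 and was not used. Tables and plots were made in Python 3.11.15 with pandas 2.3.3, numpy 2.4.6 and matplotlib 3.10.9. The fit was tested on simulated data.

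Values on every array were given for up to 8 called members with the largest change per comparison, for members whose groups did not overlap and differed by at least 0.5 (log2) in a deletion comparison, which 0 met, and otherwise for the member with the largest deletion difference in its subunit class. Partners were named up to 3 per list, called ones first. *Itgb3*, *Itgb6*, *Itga3* and *Lamb3* at E18.5, *Lama3*, *Lama5*, *Itgav* and *Itga6* in *Insig1/2Δ/Δ* lungs and *Lama5*, *Lama2* and *Itgb2* at PN1 were added after their values were seen, as were the orders of arrays. The members and lists were chosen with earlier results of these data known. Alternatives were other filters, quantile normalization, median centring, an intensity trend, array weights, 1 fit over all arrays, the methods' t-test and leaving out each array or KO17 and KO18. Promoter sequences and gene positions came from RefSeq.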

Additional observations from a re-analysis of the deposited data

How the results depend on the processing

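The methods describe the controls as littermates, but the labels name no litters, so lungs could not be paired by litter. Counts of called genes depended on the arrays and the scaling. From E18.5 to PN1 in control lungs, 2 genes were called. The count was 1 without a filter, with a stricter filter or with an intensity trend, 0 with quantile normalization, median centring or the methods' t-test, and 5 without KO17 and KO18. In *ScapΔ/Δ* lungs 11 genes were called, 4 without KO17 and KO18 and 0 with the methods' t-test, which they used for Insig and not for Scap. With array weights, whose estimation stopped early and which gave KO16 a weight of 0.0489, KO18 0.787 and KO17 10.05, the counts were 6 for Scap deletion at E18.5 (11.2% of all probe sets called), 15 at PN1 (68.1%), 16 for Insig deletion (36.7%), 19 for the difference between ages (64.4%), and 9 and 27 for the change with age in control and *ScapΔ/Δ* lungs (12.5% and 76.1%). The PN1 *ScapΔ/Δ* values there rest almost wholly on KO17.

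Leaving out 1 array gave 0 to 0 called genes for Scap deletion at E18.5, 0 to 10 at PN1, 0 to 0 for Insig deletion, 0 to 14 for the difference between ages, 0 to 7 for age in control lungs and 6 to 25 for age in *ScapΔ/Δ* lungs. The highest counts were without KO16, and the lowest in *ScapΔ/Δ* lungs, 6, without KO11 or KO17. Of 22 named differences, recomputed 429 times, 371 stayed on their side of the threshold, 42 were no longer called, 14 became called and 2 changed sign. Some of the 22 were not called to begin with, and those that stayed so count among the 371. *Itgb8*, *Itgb1*, *Itga2b*, *Lamb3*, *Itgav* and *Itga6* were not among the 22. The changes of sign were *Lama2* (-0.02) and *Itgb2* (0.19) at PN1 without KO17 and KO18. The cause was not tested.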
